A study of Mus musculus with 15 samples.

Results

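The 34 genes described here make and control cholesterol in the cell. They were taken from the deposited table by matching a fixed list of symbols, covering synthesis, control by sterol regulatory element binding proteins (SREBPs), efflux and transport, to mouse Ensembl identifiers with the version ignored. All 34 were found among 55421 gene identifiers. By role, 8 genes act in the mevalonate and isoprenoid steps, 12 in the squalene and sterol steps, 5 in SREBP control, 5 in the liver X receptor (LXR) response and efflux, and 4 in transport and storage. The first 20 are the synthesis enzymes.

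The series holds 15 poly(A) RNA-seq libraries of mouse CD4 T cells, 3 in each of 5 groups, all harvested on day 5 after sorted naive cells were activated through CD3 and CD28. The groups were wild-type Treg cultures with Srci1, wild-type Treg cultures with DMSO, wild-type TH17 cultures with Srci1, TH17 cultures of STAT3-fl/fl CD4-cre mice with DMSO (called STAT3 KO), and wild-type TH17 cultures with DMSO. TH17 cultures received TGFβ at 2.5 ng/ml with IL-6, IL-1β and IL-23 at 10 ng/ml each, whereas the Treg medium held IL-2 at 200 U/ml and a lower TGFβ dose, given as 0.5 ng/ml unless otherwise indicated. All groups also received antibodies that block IFNγ and IL-4. Srci1, a compound known here only by its code name, went into the cultures at 24 h; its dose is not stated in the labels. The Cre of the STAT3 KO mice is driven by Cd4, so the deletion takes place in the T cell lineage and precedes the culture. Mouse age and strain, and whether replicates came from separate animals or cultures, are not stated, so the spread behind each p-value is that of the deposited libraries and may be technical.

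Cholesterol is built from acetyl-CoA through mevalonate, isoprenoids, squalene and lanosterol. When the endoplasmic reticulum holds little sterol, SCAP escorts the SREBP precursors to the Golgi, where proteases release a transcription factor that switches on the synthesis enzymes; when sterol is plentiful, the INSIG proteins hold SCAP back. LXRs, which bind oxidised sterols, switch on efflux pumps instead. Activated T cells are known to turn on this synthesis as they grow and divide, and intermediates late in the sterol branch are known as ligands for RORγt, the transcription factor of the TH17 lineage.

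Values are in TPM, the authors' relative transcript abundance per library, which correct for transcript length, so levels of different genes can be set side by side. Differences are log2 fold changes of TPM + 1 with their standard errors from a limma model of all 12800 genes that reached 1 TPM in at least 3 libraries, and a gene is called higher or lower at a Benjamini-Hochberg adjusted p under 0.05. All 34 genes were tested, and 32 exceeded 1 TPM in every library. The exceptions were Abca1, which passed only through the 3 STAT3 KO libraries, and Nr1h3, at 1 TPM or more in 9 of 15 libraries. Over the 154 group means of at least 5 TPM, the coefficient of variation had a median of 6.9% and a range of 0.66% to 49.88%. The depth behind the TPM values is unknown, so no counting interval is given.

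The targeted gene, Stat3, was low in the libraries labelled STAT3 KO. It measured 33.5, 38.4 and 30.7 TPM in the STAT3 KO libraries, against 129.7, 132.9 and 99.8 TPM in DMSO-treated TH17 libraries (limma adjusted p = 3.75e-09). Stat3 also differed with Srci1. In TH17 cells it averaged 157 TPM with Srci1 and 121 TPM with DMSO (limma adjusted p = 0.00731). In Treg cells it averaged 76.5 TPM with Srci1 and 134 TPM with DMSO (limma adjusted p = 5.53e-05). The 5 T cell markers summed to 1385 to 2420 TPM in every library. The 5 TH17 markers summed to 656 TPM with Srci1 and 124 TPM in the STAT3 KO, against 4099 TPM in DMSO-treated TH17 libraries, and to 18.9 and 38.1 TPM in Srci1-treated and DMSO-treated Treg libraries. Foxp3, the defining factor of Treg cells, stood at 257 to 279 TPM in Srci1-treated and 127 to 131 TPM in DMSO-treated Treg libraries, and also at 194 to 209 TPM in Srci1-treated TH17 and 192 to 225 TPM in STAT3 KO libraries, against 9.37 to 13.6 TPM in DMSO-treated TH17 libraries. Of the 4 Treg markers, all were called higher with Srci1 in TH17 cells, while in the STAT3 KO 2 were higher and 2, Il2ra and Gpr83, lower, and their sum averaged 588 TPM in the KO and 714 TPM in DMSO-treated TH17 libraries. The share of TPM from ribosomal protein genes was 20.9% in Srci1-treated and 25% in DMSO-treated Treg libraries, and 22.1% in Srci1-treated TH17, 28.7% in STAT3 KO and 28.4% in DMSO-treated TH17 libraries. Because these shares differ, a second scaling by median of ratios, which centres the typical gene, is given beside the main counts over the 34 genes and the enzymes.

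The proximal promoters of the synthesis enzymes were read for the motifs by which this pathway is known to be regulated. SREBPs are known to work beside NF-Y, a factor that binds CCAAT. In RefSeq promoter windows of the GRCm38.p6 build, which run from 250 bases before to 50 bases after a transcription start, 28 of the 34 genes and 17 of the 20 enzymes had a sequence. CCAAT was present, on either strand, in 16 of those 17 enzymes (94.1%), against 42.3% of 17491 protein-coding genes. The SREBP site TCACNCCAC was present in 1 of the 17 enzymes (5.88%, Hmgcs1), against 1.41% of protein-coding genes, and the E-box CACGTG in 3 of 17 (17.6%), against 8.91%. Among the 11 control, efflux and transport genes with a window, 7 (63.6%) held CCAAT, 3 (27.3%) the E-box and 0 the SREBP site. The 3 enzymes with 4 or more CCAAT boxes in the window, picked after the matches were seen, are shown as examples of how these boxes are placed. Each line runs 5′ to 3′ on the plus strand and stops before the transcription start, so that boxes past the start are left out and Nsdhl shows 2 of its boxes. Capitals mark CCAAT or its reverse complement ATTGG and, in Hmgcs1, the SREBP site, whose first base lies 137 bases before the start and which overlaps no CCAAT box.
Hmgcs1, chr13:119690104-119690320: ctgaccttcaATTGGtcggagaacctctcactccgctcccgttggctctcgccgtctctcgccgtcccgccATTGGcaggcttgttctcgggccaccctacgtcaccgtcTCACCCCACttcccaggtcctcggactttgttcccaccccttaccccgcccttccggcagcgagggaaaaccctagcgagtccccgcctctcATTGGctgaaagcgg
Mvk, chr5:114444086-114444268: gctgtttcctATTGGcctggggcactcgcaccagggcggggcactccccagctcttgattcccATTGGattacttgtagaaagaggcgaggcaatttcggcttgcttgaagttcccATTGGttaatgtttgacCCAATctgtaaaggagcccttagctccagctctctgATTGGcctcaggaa
Nsdhl, chrX:72918402-72918515: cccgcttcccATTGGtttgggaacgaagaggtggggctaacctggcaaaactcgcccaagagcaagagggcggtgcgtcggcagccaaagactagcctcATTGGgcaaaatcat
The match describes letters in a window and not binding. Only exact matches to these patterns were counted, so sites that vary from them would be missed. Ggps1 held 3 CCAAT boxes, and Acat2 was the enzyme whose window held none.

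Summed over the 20 synthesis enzymes, transcript levels were lowest in the STAT3 KO and highest in Srci1-treated TH17 cells. The sum was 1868, 1893 and 1779 TPM in Srci1-treated Treg libraries, against 1294, 1278 and 1266 TPM in DMSO-treated Treg libraries. It was 2072, 1968 and 1965 TPM in Srci1-treated TH17 libraries and 756, 790 and 733 TPM in STAT3 KO libraries, against 980, 942 and 887 TPM in DMSO-treated TH17 libraries. No 2 groups overlapped. The ratio of group means was 1.44 for Srci1 in Treg cells, 2.14 for Srci1 in TH17 cells, 0.81 for the STAT3 KO in TH17 cells and 1.37 for Treg over TH17 cells in DMSO. Of the 20 enzymes, 13 had their highest group mean in Srci1-treated TH17 cells and 7 in Srci1-treated Treg cells, while 13 had their lowest in the STAT3 KO and 7 in DMSO-treated TH17 cells. In bulk RNA, fewer cells of a type and less RNA per cell cannot be told apart.

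Genes of dividing cells moved with these sums in part. The 10 proliferation genes summed to 2444 ± 20.8 TPM with Srci1 and 1682 ± 20.7 TPM with DMSO in Treg cells. In TH17 cells they summed to 1743 ± 69.5 TPM with Srci1 and 1448 ± 54.1 TPM in the STAT3 KO, against 912 ± 74.8 TPM with DMSO (SD, n = 3 each). The proliferation sum and the enzyme sum were therefore both above DMSO with Srci1 in either cell type, whereas in the STAT3 KO the proliferation sum was 1.59 times that of wild type and the enzyme sum 0.81 times. The lower enzyme sum of the KO (760 TPM, against 936 TPM in wild type) came largely from 1 gene, Fdps. It averaged 109 TPM in the KO and 242 TPM in wild type. In that comparison 8 of the 20 enzymes were called lower and 4 higher. The part of proliferation in the enzyme levels was not tested.

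**Figure D1:**
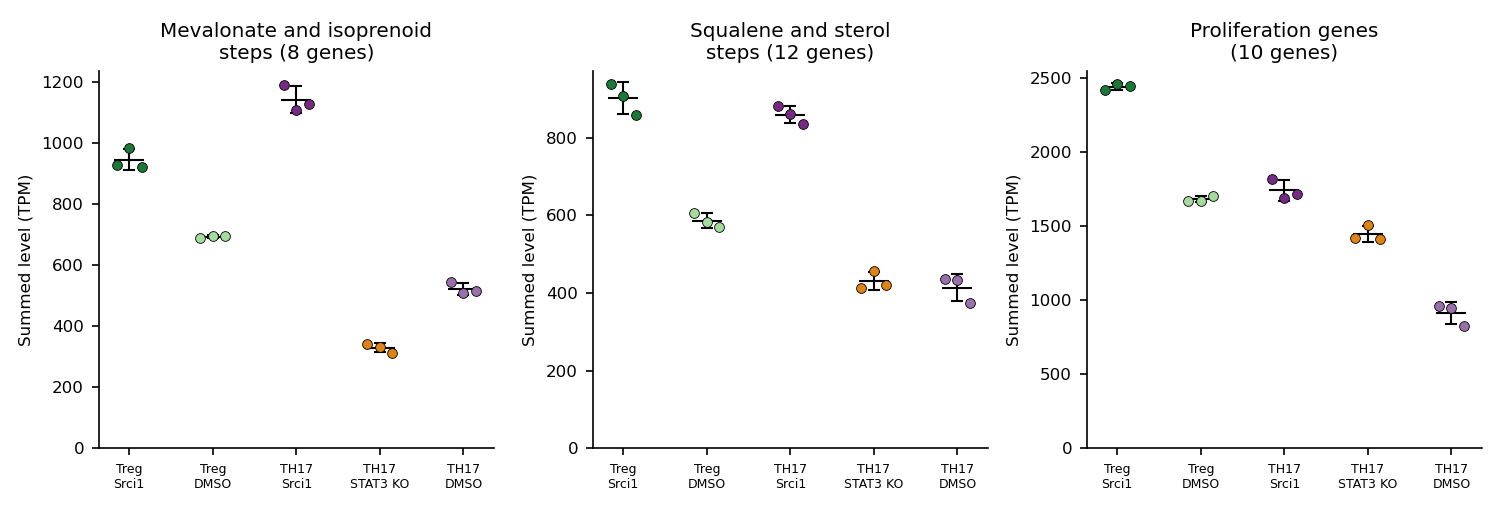
Summed TPM per library (points) with mean and SD (bars, n = 3) for the 8 mevalonate and isoprenoid genes, the 12 squalene and sterol genes and the 10 proliferation genes in 5 groups. The mevalonate sum averaged 1143 TPM in Srci1-treated TH17, 330 TPM in STAT3 KO and 523 TPM in DMSO-treated TH17 libraries, while the squalene and sterol sum of the STAT3 KO (430 TPM) was close to that of DMSO-treated TH17 cells (414 TPM).

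Srci1 in TH17 cells went with higher transcripts along the whole synthesis route. Of the 34 genes, 27 were called higher, 0 lower and 7 neither, against a background of 33.8% of all 12800 genes called higher and 7.08% called lower (40.9% in either direction). Among the 20 enzymes, 19 rose, 13 of them at least 2-fold, and the median log2 difference was 1.10, against 0.21 over all genes tested. With median-of-ratios scaling 24 of the 34 genes and 18 enzymes were called higher and the enzyme median was 0.83. That scaling moved the all-gene split from 4324 higher and 906 lower to 2123 higher and 2106 lower. The enzyme not called was Ggps1, which makes geranylgeranyl diphosphate for protein prenylation, at 20.5 to 21.7 TPM with Srci1 and 15.2 to 20.4 TPM with DMSO.

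In the mevalonate steps, Hmgcs1, the cytosolic synthase that makes HMG-CoA (GRCm38 chromosome 13, 119690379 to 119708260, plus strand), measured 185, 142 and 158 TPM in Srci1-treated TH17 libraries, against 62.3, 53.4 and 50.1 TPM in DMSO-treated ones. The groups lay far apart, a 2.92-fold difference of means with a log2 difference of 1.53 ± 0.10 (SE; limma adjusted p = 1.21e-07). Mvd, which forms isopentenyl diphosphate, gave 120, 128 and 132 TPM with Srci1 and 49.1, 51.2 and 50.8 TPM with DMSO (log2 difference 1.31 ± 0.06, limma adjusted p = 2.36e-09). Its standard error was the smallest among the 20 enzymes. Mvk, the mevalonate kinase whose promoter is printed above, stood at 40 to 46.8 TPM with Srci1 and 15 to 19.4 TPM with DMSO, and Acat2, the thiolase that condenses acetyl-CoA, at 126 to 137 TPM with Srci1 and 52.6 to 63.5 TPM with DMSO. Their log2 differences were 1.29 ± 0.10 and 1.15 ± 0.08 (limma adjusted p = 3.54e-07 and 2.35e-07). The most abundant enzyme was Fdps, farnesyl diphosphate synthase, at 503, 498 and 493 TPM with Srci1, against 244, 236 and 247 TPM with DMSO.

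All 12 enzymes of the squalene and sterol steps rose, by 0.60 to 1.40 on the log2 scale, against 33.8% of all genes called higher. With median-of-ratios scaling 11 were called higher. Dhcr7, which carries out the last reduction in one route to cholesterol (chromosome 7, 143823145 to 143848410, plus strand), gave 69, 63.9 and 54.4 TPM with Srci1 and 24.8, 24.5 and 19.8 TPM with DMSO in TH17 cells. Nsdhl, an enzyme of C4 demethylation, gave 56.8, 55.5 and 51.8 TPM with Srci1 and 20.6, 21.9 and 19.4 TPM with DMSO. Neither pair of groups overlapped, and the log2 differences were 1.40 ± 0.10 and 1.37 ± 0.07 (limma adjusted p = 4.13e-07 and 1.79e-08). Sqle, the squalene epoxidase, reached 98.7, 84 and 89.5 TPM with Srci1, against 46.9, 47.3 and 41.9 TPM with DMSO (log2 difference 0.98 ± 0.08, limma adjusted p = 8.5e-07). Msmo1, the sterol C4 methyl oxidase, and Cyp51, the lanosterol demethylase, rose by 1.14 ± 0.07 and 1.12 ± 0.07.

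**Figure D2:**
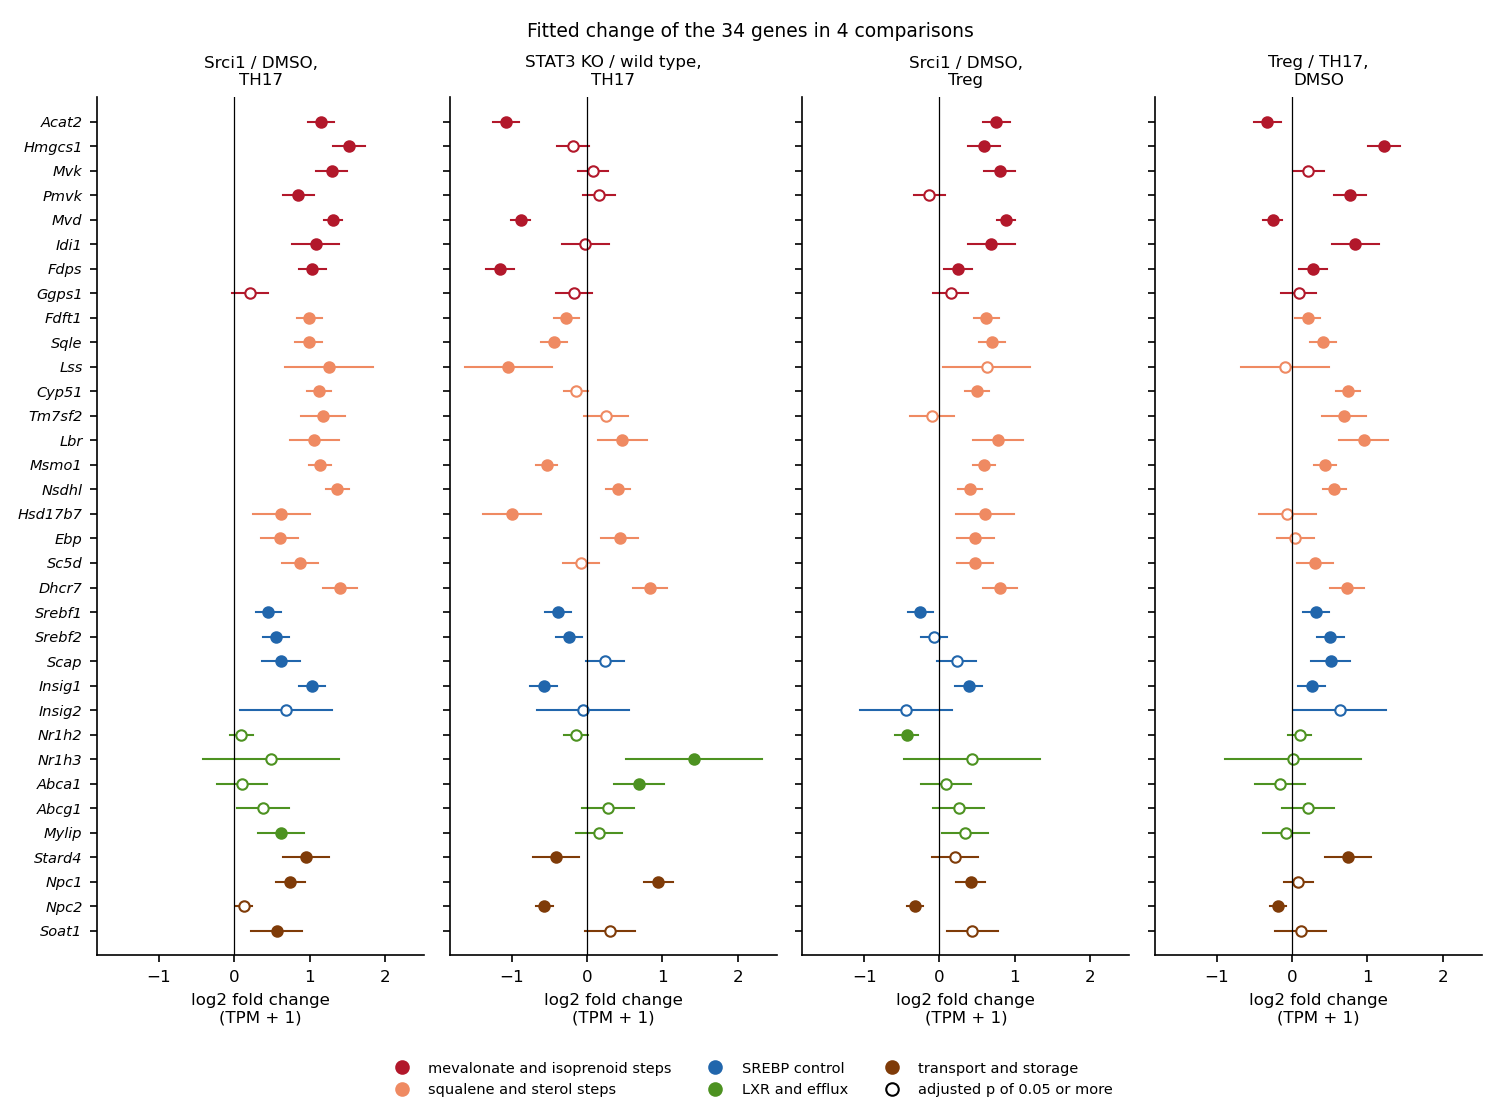
Fitted log2 fold change of TPM + 1 for each of the 34 genes in 4 comparisons, with 95% confidence intervals (lines). Filled points passed an adjusted p of 0.05 and colours mark roles; 19 of 20 enzymes lie right of 0 and filled for Srci1 in TH17 cells, against 4 for the STAT3 KO, where 8 lie left of 0 and filled.

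The control genes were called higher with Srci1 in TH17 cells in 4 of 5 cases, against 33.8% of all genes. With median-of-ratios scaling 3 were called higher. Insig1, which retains SCAP and is itself a known SREBP target (chromosome 5, 28071363 to 28078662, plus strand), measured 102, 96.2 and 97.4 TPM with Srci1, against 54, 47 and 42.6 TPM with DMSO, a 2.06-fold difference of means (limma adjusted p = 6.69e-07). Srebf2, the SREBP most tied to cholesterol genes, gave 191, 196 and 201 TPM with Srci1 and 138, 150 and 115 TPM with DMSO. Srebf1, which encodes the SREBP more tied to fatty acid synthesis, gave 88.1, 100 and 103 TPM with Srci1 and 70.5, 73.1 and 67.8 TPM with DMSO. The log2 differences were below the enzyme median, 0.55 ± 0.08 for Srebf2 and 0.45 ± 0.08 for Srebf1 (limma adjusted p = 0.000155 and 0.000547), and Srebf1 did not pass with median-of-ratios scaling (log2 difference 0.19, adjusted p = 0.0885). Scap rose by 0.62 ± 0.12. Insig2, not called, ranged over 20.5 to 28.8 TPM with Srci1 and 12.6 to 17.8 TPM with DMSO.

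Of the 5 LXR and efflux genes 1 was called higher with Srci1 in TH17 cells, against 33.8% of all genes. This was Mylip, an LXR target whose product marks lipoprotein receptors for degradation, at 3.08, 2.44 and 2.62 TPM with Srci1 and 1.7, 1.52 and 1.06 TPM with DMSO (log2 difference 0.62 ± 0.14, limma adjusted p = 0.00371). Abcg1, a cholesterol efflux pump, gave 19.8, 23 and 21.3 TPM with Srci1 and 18.8, 18.5 and 12.2 TPM with DMSO, a log2 difference of 0.38 ± 0.16 (limma adjusted p = 0.0732). It passed without DMSO-treated TH17 replicate 1 (adjusted p = 0.0393). Abca1, the other pump, was below 1 TPM in all 6 libraries, with a log2 difference of 0.10 ± 0.15 (limma adjusted p = 0.641). The LXR genes themselves, Nr1h2 at 95.2 to 107 TPM with Srci1 and 89 to 97.1 TPM with DMSO and Nr1h3 at 0.23 to 3.81 TPM with Srci1 and 0.36 to 1.59 TPM with DMSO, were not called.

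Of the transport and storage genes, 3 of 4 rose with Srci1 in TH17 cells, against 33.8% of all genes. With median-of-ratios scaling 2 were called higher. Stard4, a carrier that moves sterol between membranes, gave 53.6, 50.7 and 53.1 TPM with Srci1 and 31.9, 27.4 and 21.8 TPM with DMSO (log2 difference 0.95 ± 0.14, limma adjusted p = 0.000176). Npc1, which exports cholesterol from lysosomes, gave 38.9, 37.5 and 38.5 TPM with Srci1 and 24.6, 22.2 and 20.9 TPM with DMSO (log2 difference 0.74 ± 0.09, limma adjusted p = 2.63e-05). Its partner Npc2, not called, lay at 185 to 194 TPM with Srci1 and 170 to 176 TPM with DMSO. Soat1, which esterifies cholesterol for storage, rose by 0.56 ± 0.16 (limma adjusted p = 0.0119). Its call was lost with median-of-ratios scaling (adjusted p = 0.177), with quantile normalization (0.205) and without Srci1-treated TH17 replicate 3 (0.0561). Beside these TH17 results, the red cell gene Hba-a1 stood at 2.78 to 5.23 TPM with Srci1 and 0 to 0.97 TPM with DMSO (limma adjusted p = 0.000141), and its part was not tested.

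In the STAT3 KO, genes of the same route were called in both directions, the higher calls at less than their share of all genes. Of the 34 genes, 7 were called higher, 13 lower and 14 neither in the STAT3 KO, against backgrounds of 30.9% of all genes called higher and 18.9% called lower (49.7% in either direction); with median-of-ratios scaling 6 were higher and 17 lower. The 7 include Abca1, which had to be high in the KO to be tested at all, so that 6 of the calls do not rest on the filter. Among the enzymes, 8 fell and 4 rose, and the median log2 difference was -0.16, against 0.13 over all genes. Median-of-ratios scaling moved the all-gene split from 3952 higher and 2414 lower to 3383 higher and 3172 lower, and gave 11 enzymes lower, 3 higher and a median of -0.28. The KO is compared with the same DMSO-treated TH17 libraries as Srci1 above.

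The early steps, with 8 genes, held 3 of the falls and none of the rises, against 18.9% and 30.9% of all genes. Fdps measured 124, 105 and 97.2 TPM in STAT3 KO libraries, against 244, 236 and 247 TPM in wild-type ones, 2.23-fold lower (log2 difference -1.16 ± 0.08, limma adjusted p = 6.43e-08). Acat2 gave 28.6, 28.1 and 24.8 TPM in the KO and 63.5, 58.8 and 52.6 TPM in wild type, a 2.15-fold lower mean, and Mvd gave 28.1, 26.2 and 26.5 TPM in the KO and 49.1, 51.2 and 50.8 TPM in wild type (1.87-fold lower), with limma adjusted p = 8.85e-08 and 1.57e-08. Between these steps lie genes that were not called: Mvk was at 16.8 to 19.6 TPM in the KO and 15 to 19.4 TPM in wild type, and Idi1, the isomerase before Fdps, at 38.5 to 50.4 TPM in the KO and 38.6 to 55.9 TPM in wild type. Hmgcs1 gave 43.6, 50.8 and 50.5 TPM in the KO and 62.3, 53.4 and 50.1 TPM in wild type, overlapping ranges with a log2 difference of -0.19 ± 0.10 (limma adjusted p = 0.133). Under median-of-ratios scaling it was called lower (log2 difference -0.31, adjusted p = 0.00789), as with quantile normalization (adjusted p = 0.0429).

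In the 12 sterol steps 5 enzymes fell and 4 rose in the STAT3 KO, against 18.9% and 30.9% of all genes, so the rises lay near their share. Among those that fell, Msmo1 gave 28, 27.3 and 25.1 TPM in the KO and 39.7, 37.5 and 40.6 TPM in wild type (log2 difference -0.53 ± 0.07, limma adjusted p = 1.41e-05). Sqle gave 34.8, 35.3 and 29.6 TPM in the KO and 46.9, 47.3 and 41.9 TPM in wild type (log2 difference -0.44 ± 0.08, limma adjusted p = 0.000431). Hsd17b7, a ketoreductase of C4 demethylation, and Lss, which closes the rings to lanosterol, had 2.26-fold and 2.18-fold lower mean TPM (limma adjusted p = 0.000337 and 0.00542). Lss had widely spread replicates, 7.32, 14.5 and 9.46 TPM in the KO and 27.7, 26.3 and 14 TPM in wild type, and its ranges overlapped.

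The sterol enzymes that rose in the STAT3 KO were Dhcr7, Nsdhl, Ebp and Lbr. Dhcr7 gave 43.8, 39.2 and 42.6 TPM in the KO and 24.8, 24.5 and 19.8 TPM in wild type, 1.82-fold higher (log2 difference 0.84 ± 0.10, limma adjusted p = 1.42e-05). Nsdhl, which shares the C4 demethylation complex with Msmo1 and Hsd17b7, gave 26.3, 27.9 and 29.2 TPM in the KO and 20.6, 21.9 and 19.4 TPM in wild type (log2 difference 0.41 ± 0.07, limma adjusted p = 0.000257). Enzymes of a single complex thus lay on opposite sides of 0. Ebp, the sterol isomerase, rose by 0.44 ± 0.11 (limma adjusted p = 0.00556), a call lost with median-of-ratios scaling (adjusted p = 0.0773). Lbr, a sterol reductase that also anchors chromatin to the nuclear envelope, rose by 0.47 ± 0.15 (limma adjusted p = 0.0191). Its call was lost with array weights (adjusted p = 0.154), with only the compared groups (0.0571), without STAT3 KO replicate 2 (0.0872) and without wild-type replicate 3 (0.0926).

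**Figure D3:**
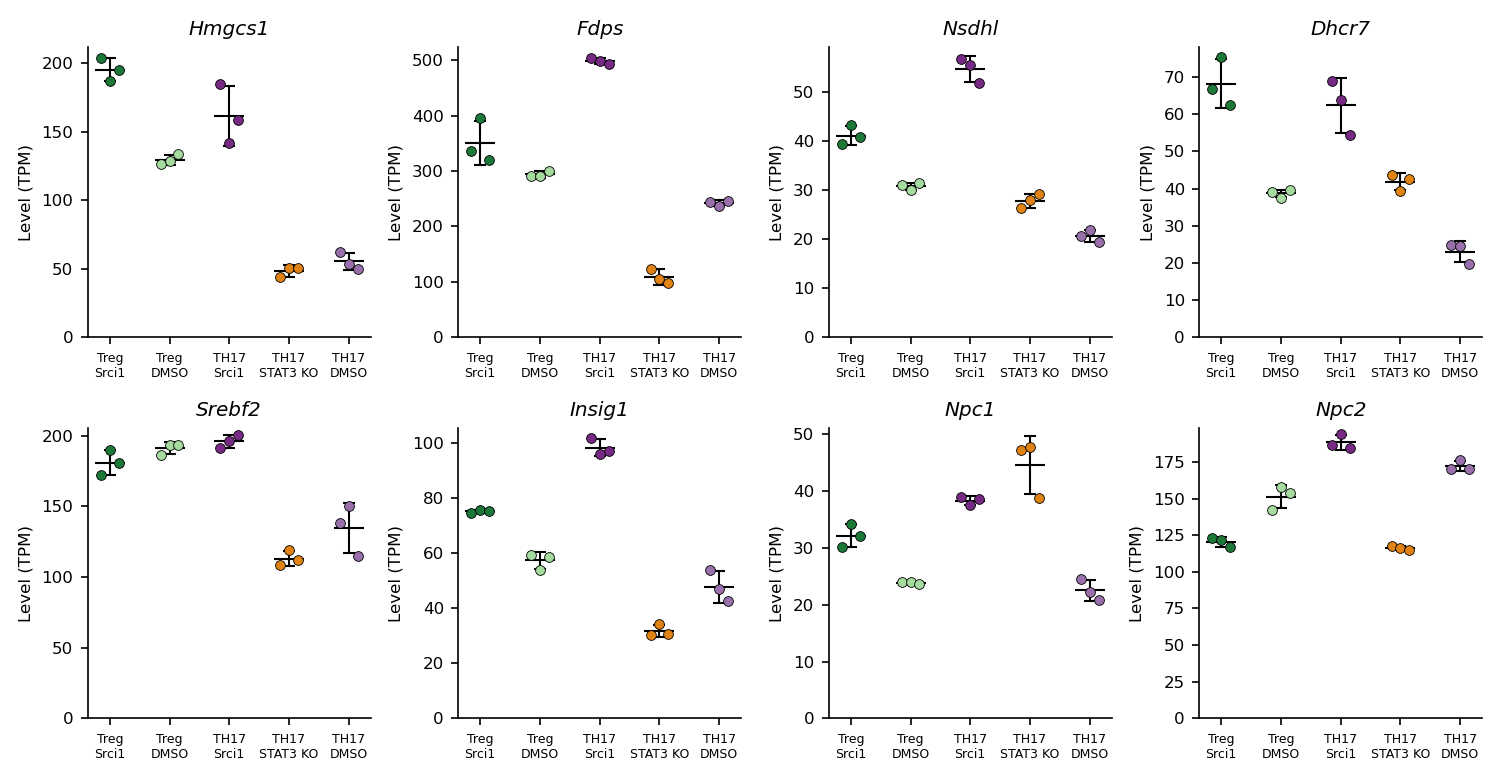
TPM of 8 genes in each library (points) with mean and SD (bars, n = 3 per group). Fdps sits at 97.2 to 124 TPM in the STAT3 KO, below DMSO-treated TH17 libraries, while Dhcr7, Nsdhl and Npc1 sit above them; Npc2 in the KO (115 to 118 TPM) lies below them.

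The control genes were called lower in 3 of 5 cases and higher in 0 in the STAT3 KO, against 18.9% and 30.9% of all genes. Insig1 gave 30.2, 34.3 and 30.6 TPM in the KO and 54, 47 and 42.6 TPM in wild type, lower by 1.51-fold (limma adjusted p = 4.86e-05), and Srebf1 gave 53.8, 58.4 and 49.6 TPM in the KO and 70.5, 73.1 and 67.8 TPM in wild type, lower by 1.31-fold (limma adjusted p = 0.00109). Srebf2, at 108, 119 and 112 TPM in the KO and 138, 150 and 115 TPM in wild type, had overlapping ranges and a log2 difference of -0.24 ± 0.08 (limma adjusted p = 0.023). Its call was lost with only the compared groups (adjusted p = 0.125), without KO replicate 1 (0.076) or 3 (0.0561) and without wild-type replicate 1 (0.0646) or 2 (0.116). Among 5 genes that cleave SREBPs or serve sterol-driven degradation in the endoplasmic reticulum, 3 rose and 0 fell, against 30.9% and 18.9% of all genes. Mbtps1, the Golgi protease that makes the first cut in SREBPs, averaged 68.1 ± 6.52 TPM in the KO and 33.9 ± 6.8 TPM in wild type (SD, n = 3 each; limma adjusted p = 1.42e-05). Rnf139, a ubiquitin ligase of the endoplasmic reticulum, averaged 15.3 ± 1.08 TPM in the KO and 8.31 ± 1.87 TPM in wild type (limma adjusted p = 0.000124).

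The lysosomal export pair moved in opposite directions in the STAT3 KO. Npc1 gave 47.2, 47.8 and 38.8 TPM in the KO and 24.6, 22.2 and 20.9 TPM in wild type, 1.98-fold higher (log2 difference 0.95 ± 0.09, limma adjusted p = 7.51e-07). Npc2 gave 118, 116 and 115 TPM in the KO and 170, 176 and 170 TPM in wild type, lower by 1.48-fold (log2 difference -0.56 ± 0.05, limma adjusted p = 5.23e-07). No ranges overlapped. Lipa, the lysosomal acid lipase that frees cholesterol for this pair, averaged 20 ± 1.57 TPM in the KO and 10.9 ± 0.99 TPM in wild type (SD, n = 3 each; limma adjusted p = 8.96e-06). Stard3, a carrier at the late endosome, was likewise higher (limma adjusted p = 3.79e-05). Among 7 genes of sterol movement 3 rose and 2 fell, against 30.9% and 18.9% of all genes. The falls were Gramd1a and Tmem97, which binds NPC1. Tmem97 averaged 54.7 ± 2.71 TPM in the KO and 93.2 ± 1.99 TPM in wild type. Stard4 was lower by -0.41 ± 0.14 (limma adjusted p = 0.027). That call was lost without a filter on low values (adjusted p = 0.0513), with only the compared groups (0.133), without KO replicate 1 (0.096) or 3 (0.11) and without wild-type replicate 1 (0.117) or 2 (0.0687). Soat1 had a log2 difference of 0.31 ± 0.16 (limma adjusted p = 0.123).

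LXR genes and targets moved in different directions in the STAT3 KO. Abca1 was at 1.21, 2.01 and 1.32 TPM in the KO and 0.62, 0.7 and 0.33 TPM in wild type; it met the filter only through the KO libraries, so its fitted difference (0.69 ± 0.15) is given as a description. Nr1h3 was at 2.37, 4.78 and 3.75 TPM in the KO and 1.59, 0.37 and 0.36 TPM in wild type, near the level of the filter (log2 difference 1.42 ± 0.42, limma adjusted p = 0.012). Apoe, which encodes a lipoprotein and is a known LXR target in macrophages, was at 17.2, 25.1 and 18 TPM in the KO and 4.25, 2.75 and 4.5 TPM in wild type (log2 difference 2.13 ± 0.22, limma adjusted p = 2.27e-06). Arl4c and Lpcat3, known LXR targets too, were lower, Arl4c with 8.83 ± 1.01 TPM in the KO and 23.1 ± 1.26 TPM in wild type. Abcg1 (log2 difference 0.28 ± 0.16, limma adjusted p = 0.167) and Mylip (0.16 ± 0.14, limma adjusted p = 0.373) were not called.

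Markers of other cells were low but differed in the same libraries. The 6 B cell markers summed to 13.3 to 13.9 TPM in the KO and 2.77 to 3.78 TPM in wild-type TH17 libraries, with Cd79b at 7.16 to 8.99 TPM in the KO and 0.13 to 0.33 TPM in wild type. Of the 4 B cell markers tested, 3 were called higher and 1 lower in the KO, the last being Ebf1, at 0 to 0.07 TPM in the KO and 1.99 to 3.03 TPM in wild type. The 6 myeloid and dendritic markers summed to 10.8 to 12.2 TPM in the KO and 3.87 to 6.91 TPM in wild type, nearly all of it Cd68, while Lyz2 and Csf1r were at 0 to 0.26 TPM in those libraries. The 4 CD8 and NK markers summed to 11.2 to 14.8 TPM in the KO and 6.61 to 7.76 TPM in wild type. The part of such cells in the Apoe, Nr1h3 and Abca1 values was not tested.

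In Treg cells Srci1 went with smaller rises of the same enzymes. Of the 34 genes, 18 were called higher, 3 lower and 13 neither, against backgrounds of 17.1% called higher and 10% called lower (27.2% in either direction). Of the 20 enzymes 16 rose, none reached 2-fold, and the median log2 difference was 0.60, against 0.11 over all genes. With median-of-ratios scaling 16 genes were higher and 4 lower, 14 enzymes were higher with a median of 0.48, and the all-gene split moved from 2192 higher and 1285 lower to 1344 higher and 1794 lower. The enzymes not called were Pmvk, Ggps1, Lss and Tm7sf2, and Pmvk lay at 54.5 to 59 TPM with Srci1 and 59.1 to 67.8 TPM with DMSO.

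Mvd had the smallest adjusted p of the enzymes in Treg cells, with 78.2, 79 and 77.7 TPM with Srci1 and 42.5, 42.2 and 41.2 TPM with DMSO (log2 difference 0.88 ± 0.06, limma adjusted p = 1.18e-07). Hmgcs1 gave 204, 187 and 195 TPM with Srci1 and 126, 128 and 133 TPM with DMSO (log2 difference 0.59 ± 0.10, limma adjusted p = 0.000667). Sqle gave 98, 99.6 and 99.3 TPM with Srci1 and 62.5, 58.8 and 60.3 TPM with DMSO (log2 difference 0.70 ± 0.08, limma adjusted p = 2.81e-05). In each the groups were clear of each other, as they were for Mvk, Acat2, Fdft1, Msmo1 and Dhcr7, whose log2 differences were 0.80, 0.76, 0.62, 0.60 and 0.80.

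Of the 5 control genes 1 rose and 1 fell with Srci1 in Treg cells, counts near the shares of all genes (17.1% higher and 10% lower). Insig1 gave 74.7, 75.7 and 75.5 TPM with Srci1 and 59.5, 53.9 and 58.8 TPM with DMSO (log2 difference 0.39 ± 0.08, limma adjusted p = 0.00351). Srebf2 gave 172, 190 and 181 TPM with Srci1 and 186, 193 and 193 TPM with DMSO, overlapping, with a log2 difference of -0.08 ± 0.08 (limma adjusted p = 0.506; -0.21 and 0.0234 with median-of-ratios scaling). Srebf1 fell by 0.25 ± 0.08 on the log2 scale, with 72.9, 77.6 and 71 TPM with Srci1 and 84, 94.6 and 86.2 TPM with DMSO (limma adjusted p = 0.0291). Its call was lost without DMSO-treated Treg replicate 2 (adjusted p = 0.12) or 3 (0.055) and without Srci1-treated Treg replicate 1 (0.0765) or 3 (0.0987).

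The other genes lower with Srci1 in Treg cells were Nr1h2, the widely expressed LXRβ gene, and Npc2. Nr1h2 gave 73.3, 72.9 and 75.3 TPM with Srci1 and 104, 91 and 105 TPM with DMSO (log2 difference -0.43 ± 0.07, limma adjusted p = 0.000593), and Npc2 gave 123, 122 and 117 TPM with Srci1 and 142, 158 and 154 TPM with DMSO (log2 difference -0.33 ± 0.05, limma adjusted p = 0.000362). Npc1 rose by 0.41 ± 0.09 (limma adjusted p = 0.00373). Abca1 (log2 difference 0.08 ± 0.15, limma adjusted p = 0.734), Abcg1 (0.26 ± 0.16, 0.256), Mylip (0.34 ± 0.14, 0.0968) and Soat1 (0.44 ± 0.16, 0.054) were not called, though some passed under an alternative. Soat1 passed without DMSO-treated Treg replicate 2 (adjusted p = 0.0134), with the 5 TPM filter (0.0478) and with array weights (0.031), Mylip with array weights (0.0292) and Abcg1 with only the compared groups (0.0308). Outside the 34 genes, Arl4c was the most changed of the LXR-related genes, at 31.5, 33.6 and 34.6 TPM with Srci1 and 10.2, 10.1 and 10.1 TPM with DMSO (log2 difference 1.62 ± 0.08, limma adjusted p = 1.28e-08). Gramd1b, a carrier that draws cholesterol from the plasma membrane, was lower, at 38 ± 2.09 TPM with Srci1 and 78.3 ± 3.62 TPM with DMSO (SD, n = 3 each; limma adjusted p = 8.32e-05). Hba-a1 stood at 16.7 to 25.6 TPM with Srci1 and 1.29 to 3.4 TPM with DMSO in these Treg libraries; its part in these results was not tested.

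The Srci1 difference was larger in TH17 than in Treg cells for all 34 genes as fitted on the TPM scale. Its median was 0.44 over the 34 genes and 0.13 over all genes, so the typical gene leaned the same way. With median-of-ratios scaling these medians were 0.30 and 0.01, and among the named genes Abca1 (-0.0339), Abcg1 (-0.0089) and Soat1 (-0.0119) fell below 0. The test of that difference passed for 18 genes in that direction and for 0 in the other, against backgrounds of 11.3% and 2.95% (14.2% in either direction). The TH17 and Treg comparisons share no library. With median-of-ratios scaling the difference passed for 13 genes, and 14 to 19 passed when each library was left out in turn. Of the 34 genes, 18 were called higher with Srci1 in both cell types, 8 in TH17 cells with no call in Treg cells, and 1, Srebf1, was called higher in TH17 cells and lower in Treg cells. The 20 enzymes split into 16 higher in both cell types and 3 higher in TH17 cells with no call in Treg cells. Shares of all genes for these pairs of calls, and for a larger difference in TH17 cells, were not counted. Taken singly, 33.8% of all genes were called higher with Srci1 in TH17 cells and 17.1% in Treg cells.

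The largest of these differences among the named enzymes was for Tm7sf2, a sterol reductase. It gave 20.5, 20.5 and 21.5 TPM with Srci1 and 8.28, 7.54 and 10.4 TPM with DMSO in TH17 cells, and 14.2, 11.9 and 15 TPM with Srci1 and 13.4, 16.9 and 13.7 TPM with DMSO in Treg cells. The difference of the Srci1 effects was 1.27 ± 0.19 on the log2 scale (limma adjusted p = 0.000557). Tm7sf2 shares 12.1% of its exonic bases with Vps51 on the same strand, so its reads may be split between the 2 genes. Pmvk, which phosphorylates mevalonate phosphate, came next with 0.98 ± 0.14, Nsdhl with 0.96 ± 0.10, Hmgcs1 with 0.94 ± 0.14 and Fdps with 0.79 ± 0.12 (limma adjusted p = 0.00031, 3.53e-05, 0.000543 and 0.000607). Sqle had a difference of 0.28 ± 0.11 (limma adjusted p = 0.12), and its 95% interval ran from 0.04 to 0.53.

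All 3 of the control genes with a call in this test were larger in TH17 cells, Srebf1 by 0.71 ± 0.11, Insig1 by 0.65 ± 0.12 and Srebf2 by 0.63 ± 0.11 (limma adjusted p = 0.000813, 0.00215 and 0.00232). Nr1h2 differed by 0.53 ± 0.10, Npc2 by 0.45 ± 0.07 and Stard4 by 0.74 ± 0.20 (limma adjusted p = 0.00347, 0.000818 and 0.0248). Npc2 did not pass with median-of-ratios scaling (adjusted p = 0.0582). Stard4 did not pass without a filter on low values (adjusted p = 0.0501), nor without Srci1-treated TH17 replicate 1 (0.0524) or 3 (0.0541), DMSO-treated Treg replicate 2 (0.0621) or 3 (0.0516), or Srci1-treated Treg replicate 1 (0.0581) or 2 (0.0566). Abca1 (0.02 ± 0.22), Abcg1 (0.12 ± 0.23), Mylip (0.28 ± 0.20) and Soat1 (0.12 ± 0.22) were not called, with limma adjusted p of 0.973, 0.782, 0.393 and 0.778. For 7 of the 10 proliferation genes the test also passed with a larger Srci1 difference in TH17 cells, against 11.3% of all genes. With median-of-ratios scaling 3 passed. The part of proliferation in these differences was not tested.

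**Figure D4:**
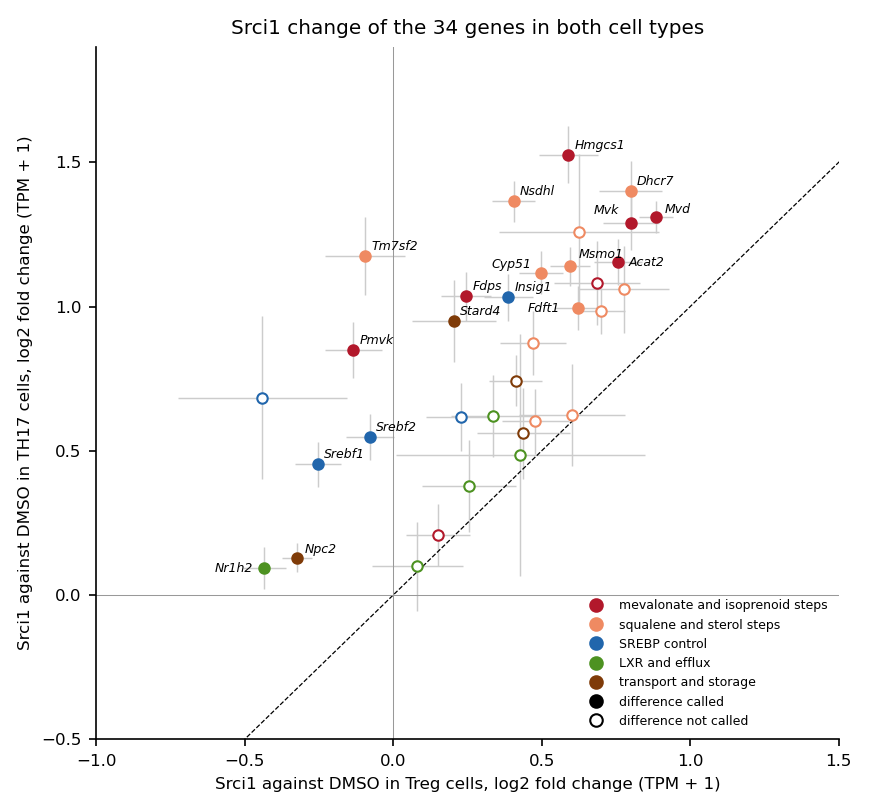
Srci1-against-DMSO log2 fold change of TPM + 1 in Treg cells (horizontal axis) and TH17 cells (vertical axis) for the 34 genes, with standard errors as grey lines and the line of equal change dashed. All 34 points lie above the dashed line, and filled, named points mark the 18 genes whose difference between cell types passed an adjusted p of 0.05.

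Without Srci1, Treg and TH17 cells in DMSO, also harvested on day 5, differed in these genes. The 18 of 34 called higher and 3 lower are to be read against backgrounds of 32.3% higher and 12.5% lower (44.8% in either direction). Cytokines and TGFβ dose differ with the cell type. With median-of-ratios scaling 13 were higher and 3 lower, and the all-gene split moved from 4132 higher and 1605 lower to 2740 higher and 2769 lower. Among the enzymes, 13 were higher in Treg cells and 2 lower, or 10 and 2 with median-of-ratios scaling. Hmgcs1 gave 126, 128 and 133 TPM in Treg and 62.3, 53.4 and 50.1 TPM in TH17 libraries, 2.34-fold higher (limma adjusted p = 3.07e-07), so that DMSO-treated Treg cells lay just below the range of Srci1-treated TH17 cells (142 to 185 TPM). Cyp51 gave 96.3, 92 and 88.9 TPM in Treg and 59.4, 56.3 and 48.9 TPM in TH17 libraries (limma adjusted p = 2.29e-06). The enzymes lower in Treg cells were Acat2, with 44.1, 46.9 and 47.5 TPM in Treg and 63.5, 58.8 and 52.6 TPM in TH17 libraries, and Mvd, with 42.5, 42.2 and 41.2 TPM in Treg and 49.1, 51.2 and 50.8 TPM in TH17 libraries (limma adjusted p = 0.00502 and 0.0022). These first and middle steps of the mevalonate route thus lay on the other side of 0 from Hmgcs1, Pmvk and Idi1, whose log2 differences were 1.22, 0.77 and 0.84.

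Of the 5 control genes 4 were higher in DMSO-treated Treg than TH17 cells, against 32.3% of all genes. With median-of-ratios scaling 2 were called higher. Srebf2 differed by 0.51 ± 0.08, Srebf1 by 0.32 ± 0.08 and Insig1 by 0.26 ± 0.08 (limma adjusted p = 0.000169, 0.00466 and 0.0187). Srebf1 did not pass with median-of-ratios scaling (adjusted p = 0.287). Insig1 did not pass with median-of-ratios scaling (0.448), quantile normalization (0.216) or only the compared groups (0.0891), nor without TH17 replicate 2 (0.0509) or 3 (0.076) or Treg replicate 1 (0.0669) or 3 (0.0608). Fdps, higher by 0.28 ± 0.08 (limma adjusted p = 0.0166), did not pass with median-of-ratios scaling (0.631), quantile normalization (0.11), or without TH17 replicate 2 (0.0511) or Treg replicate 3 (0.0536). Npc2 was lower by -0.19 ± 0.05 (limma adjusted p = 0.00871; 0.0508 without Treg replicate 1). None of the 5 LXR and efflux genes was called by limma, against 44.8% of all genes in either direction. Abca1, Abcg1 and Mylip had unadjusted limma p-values of 0.316, 0.212 and 0.608. Gramd1b was far higher in Treg cells, with 78.3 ± 3.62 TPM in Treg and 16.8 ± 1.32 TPM in TH17 libraries (SD, n = 3 each; limma adjusted p = 1.71e-08).

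Set directly against each other, Srci1-treated and STAT3 KO TH17 cells differed across the route. Of the 34 genes 28 were higher with Srci1 and 1 lower, against backgrounds of 30.6% and 18.4% (49.1% in either direction), and 19 of 20 enzymes were higher, with a median log2 difference of 1.24. With median-of-ratios scaling 25 genes were higher and 2 lower, 19 enzymes were higher with a median of 1.09, and the all-gene split moved from 3922 higher and 2361 lower to 3088 higher and 3199 lower. Acat2 gave 137, 130 and 126 TPM with Srci1 and 28.6, 28.1 and 24.8 TPM in the KO, a 4.81-fold difference of means (limma adjusted p = 4.97e-11). Mvd and Fdps differed 4.7-fold and 4.58-fold (limma adjusted p = 1.85e-12 and 9.59e-11). The enzyme not called was Ebp, at 71.5 to 97.7 TPM with Srci1 and 68.9 to 81.7 TPM in the KO. Of the control genes Insig1 differed by 1.61 ± 0.08, Srebf1 by 0.83 ± 0.08 and Srebf2 by 0.79 ± 0.08 on the log2 scale (limma adjusted p = 1.43e-09, 9.52e-07 and 2.12e-06). The gene lower with Srci1 was Abca1, for which the filter was met through the KO libraries alone. Both groups had far less Il17a than DMSO-treated TH17 cells, at 36.5 to 42.5 TPM with Srci1 and 8.76 to 11.7 TPM in the KO, against 1280 to 1378 TPM.

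Branches leave the route before sterols, and their genes were counted in the same way. Of 10 genes of prenylation, dolichol and ubiquinone synthesis, 1 was called higher and 1 lower with Srci1 in Treg cells, against 17.1% and 10% of all genes. Among TH17 cultures 2 were higher and 2 lower with Srci1, against 33.8% and 7.08% of all genes, and 3 were higher and 3 lower in the STAT3 KO, against 30.9% and 18.9%. With median-of-ratios scaling the counts were 0 higher and 2 lower with Srci1 in Treg cells, 1 and 3 with Srci1 in TH17 cells, and 3 and 3 in the STAT3 KO. Fntb, the farnesyltransferase beta subunit, averaged 17.2 ± 3.77 TPM with Srci1 and 30.2 ± 1.41 TPM in the KO, against 12.5 ± 1.15 TPM in DMSO-treated TH17 cells. Rabggta, a subunit of the enzyme that attaches geranylgeranyl groups to Rab proteins, averaged 21.2 ± 1.93 TPM with Srci1 and 13.1 ± 0.5 TPM in the KO, against 26 ± 2 TPM (SD, n = 3 each). Dhdds, a subunit of the dolichol synthase, averaged 30.5 ± 1 TPM with Srci1 and 35.7 ± 1.62 TPM in the KO, against 19.9 ± 1.71 TPM. Fdps, whose product feeds these branches, had in the KO the lowest level of the 5 groups.

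Reads could be shared with other genes in some cases. Of the 34 genes, 13 share exonic bases with another gene, 6 of them with a coding gene on the opposite strand, and 5 share over 10% of their exonic bases. The largest shared part was that of Fdps, 26.7% with the coding gene Gm43738 on the same strand, which lay at 0 to 0.09 TPM. Fdft1, the squalene synthase, shares 18.3% with Ctsb on the opposite strand, which lay at 97.2 to 171 TPM. The values of Fdft1 are therefore uncertain, because the strand setting is not given. Acat3, a near copy of Acat2, was at 0.12 to 1.37 TPM in every library.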

How the data were processed

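Poly(A) RNA of 15 CD4 T cell libraries was sequenced, and the authors deposited 1 table of TPM (relative transcript abundance) per gene. The submitters' processing notes list RSEM 1.3.3, STAR 2.7.9a and the build GRCm38, with no options. No source used here gives an annotation release, a strand setting or a filter. TPM keeps no depth, so read depth is unknown. From the table, log2(TPM + 1) was computed; the 12800 genes reaching 1 TPM in 3 or more libraries were fitted with limma 3.58.1 in R 4.3.3 (mean-variance trend, 5 group means, all 15 libraries), and p-values were adjusted over all genes by the Benjamini-Hochberg method at 0.05. Fold changes on this scale understate the change of low genes. The comparisons of Srci1 with DMSO in TH17 cells, of the STAT3 KO with wild type and of Treg with TH17 cells share the DMSO-treated TH17 libraries. The fit was tested on simulated data. Gene positions and overlaps are from GENCODE M21 on GRCm38, and promoter windows are from RefSeq on GRCm38.p6.

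The 34 genes, the lists and the tests were chosen with earlier results of these data known. Genes named per comparison were up to 4 called genes per role and direction with the smallest adjusted p, plus Hmgcs1, Sqle, Srebf1, Srebf2, Insig1, Abca1, Abcg1, Mylip and Soat1; from each accompanying list, up to 2 called genes per direction. Other genes appear by level or count, some named after their values were seen. Alternatives were a pseudocount of 0.1, no filter, a 5 TPM filter, median-of-ratios scaling, quantile normalization, array weights, a replicate block, only the compared groups, and each library left out.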

Additional observations from a re-analysis of the deposited data

Results flagged for a closer look

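For 18 of the 34 genes the response to Srci1 differed between the cell types in the interaction test of limma and was larger in TH17 cells, and the 14 of them that the naming rule selects are given here. The values below are the log2 Srci1 difference in TH17 cells minus that in Treg cells. Among the mevalonate genes it was 0.9375 for Hmgcs1, 0.984 for Pmvk, 0.426 for Mvd and 0.7907 for Fdps. Among the sterol genes it was 0.6196 for Cyp51, 1.2692 for Tm7sf2, 0.544 for Msmo1 and 0.9602 for Nsdhl. Among the control genes it was 0.7056 for Srebf1, 0.6255 for Srebf2 and 0.6454 for Insig1, and elsewhere it was 0.5286 for Nr1h2, 0.745 for Stard4 and 0.4543 for Npc2. For Mvd the test did not pass with median-of-ratios scaling (limma adjusted p = 0.117) or quantile normalization (0.0657).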

How the results depend on the processing

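Of 119 named gene results, 97 were called, and 87 kept their direction and side of the threshold under every alternative run; 17 lost a call under at least 1 alternative, each named in the report or below. Of 1767 gene values under alternatives, 1677 kept direction and side, 57 lost the threshold, 9 gained it and 24 changed sign. All that changed sign were uncalled. For Abca1 with Srci1 in TH17 cells the log2 difference was -0.0072 with quantile normalization and -0.007 to 0.1701 with a library left out. With quantile normalization Mylip in the STAT3 KO was at -0.0115, and for Treg against TH17 cells Abcg1 was at -0.0495. For Treg against TH17 cells Mylip ranged from -0.1882 to 0.007 with a library left out, and Soat1 was at -0.0907 with median-of-ratios scaling, -0.1305 with quantile normalization and -0.0543 to 0.271 with a library left out. For the difference between Srci1 effects, Abca1 was at -0.0339 with median-of-ratios scaling, -0.1332 with quantile normalization, -0.0438 with array weights and -0.0879 to 0.0892 with a library left out. In the same test Abcg1 was at -0.0089, -0.0604 and -0.0696 to 0.2246, and Soat1 at -0.0119, -0.0522 and -0.0442 to 0.2811, with median-of-ratios scaling, quantile normalization and a library left out. For Srci1-treated against STAT3 KO TH17 cells Abcg1 was at -0.0399 with median-of-ratios scaling, -0.0424 with quantile normalization and -0.0123 to 0.2647 with a library left out. In that comparison 1 gene was called lower; the count was 0 with the 5 TPM filter, 2 with median-of-ratios scaling, quantile normalization or array weights, and 1 to 2 with a library left out. The causes were not tested.

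Also between Srci1-treated and STAT3 KO TH17 cells, Scap lost its call with median-of-ratios scaling (limma adjusted p = 0.0654), quantile normalization (0.106), without STAT3 KO replicate 1 (0.0598) and without Srci1-treated replicate 2 (0.0657). Nr1h2 lost it with both scalings (0.377 and 0.572), without STAT3 KO replicate 2 (0.0568) and without Srci1-treated replicate 1 (0.0672), and Mylip without STAT3 KO replicate 3 (0.0693) and without Srci1-treated replicate 1 (0.0656).

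Libraries with the same replicate number showed little shared deviation: 2 of 30 same-numbered pairs had a correlation of deviations over 0.1, with a median of 6e-04. Such correlations cannot show whether same-numbered libraries shared an animal or a culture, which is not stated. With the replicate number as a block, 17 genes were called higher with Srci1 in Treg cells and 27 higher in Srci1-treated against STAT3 KO TH17 cells, against 18 and 28 without it, and no call of a named gene changed. TPM without counts gives no measure of depth, so low genes such as Abca1, Nr1h3 and Mylip are the least certain.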

Other observations

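Idi2, a paralog of the isopentenyl diphosphate isomerase gene Idi1, was picked after its values were seen. It measured 7.24, 10.5 and 9.87 TPM in STAT3 KO libraries and 0.74, 0.46 and 0.34 TPM in Srci1-treated TH17 libraries, against 0.96, 0.82 and 0.36 TPM in DMSO-treated TH17 libraries. In Treg libraries it measured 3.01, 2.35 and 3.67 TPM with Srci1 and 4.61, 5.67 and 4.02 TPM with DMSO. For the STAT3 KO against wild type the log2 difference was 2.58 ± 0.19 (limma adjusted p = 7.93e-08), higher in 3 of 3 libraries, while Idi1 was not called in that comparison. Reads shared between these paralogs may be divided between them by the authors' estimation.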
